A study of Mus musculus with 10 samples.

Results

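The genes of the cytosolic ribosomal proteins, the proteins of the ribosome that translates nuclear messages, were compared between the brains of Aldara-treated and control mice. Members were all genes with a symbol of the form Rpl or Rps plus a number (with an optional a, x, y or l) and the stalk genes Rplp0, Rplp1 and Rplp2. This gave 74 genes, 45 of the large subunit, 26 of the small subunit and 3 of the stalk, beside 19938 genes with a probeset of their own in the whole series. Each gene was read from 1 probeset, the group of array probes summarised as 1 value. A probeset that carried 1 symbol was preferred, then the one with the highest mean. For 58 members the probeset carried only the member's symbol, and for 16 it was shared with another gene or pseudogene.

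The animals were female C57BL/6 mice aged 6 to 8 weeks. In each group, 5 mice had 80 mg of cream put on shaved back skin every 24 h for 5 applications, and 1 array was run per brain. The treated group received Aldara, a cream with 5% imiquimod that activates the RNA receptor TLR7, and the control group an aqueous cream. Perfused brains were taken 24 h after the last application, so the RNA came from every cell type of the brain and from cells that had entered it. In such bulk RNA, fewer cells of a type and less RNA per cell cannot be told apart. The creams differed in more than imiquimod, and the effect of imiquimod and that of the rest of the Aldara vehicle cannot be told apart on these arrays.

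Cytosolic ribosomal proteins are made in step, since each ribosome needs 1 copy of nearly every one of them. Their messages commonly start with a C followed by a run of pyrimidines, the 5′ terminal oligopyrimidine (TOP) tract, through which the kinase mTOR and the protein Larp1 adjust their translation and stability. Neurons and glia both carry large pools of ribosomes, and immune cells add to them as they grow and divide. The genes also have many processed pseudogenes, so that a probeset can read RNA of more than 1 locus.

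The 30 bases around the annotated transcription start are shown for members whose responses differed, 10 before the start and 20 from it. They were taken from RefSeq on GRCm38.p6, and capitals mark the C or T run that begins at the annotated start with a C. Rps18, Rplp2, Rpl35 and Rps6 had such a tract and rose, Rps15a had one and did not pass the test, and Rpl14 had one and was the 1 member that fell. Some of these calls have limits, given below. The probeset of Rpl35 is shared with Itgam, and another probeset of Rps15a, shared with pseudogenes, was called higher. The calls of Rps6 and Rpl14 were each lost when some single arrays were left out. Rps27l and Rplp0, the members with the largest increases, had no such tract at the starts shown. The windows lie at chr17:33955646-33955675 on the minus strand for Rps18, chr7:141447641-141447670 on the plus strand for Rplp2, chr2:39005112-39005141 on the minus strand for Rpl35, chr4:86857348-86857377 on the minus strand for Rps6, chr7:118116128-118116157 on the minus strand for Rps15a, chr9:120571507-120571536 on the plus strand for Rpl14, chr9:66946076-66946105 on the plus strand for Rps27l and chr5:115559457-115559486 on the plus strand for Rplp0.
Rps18: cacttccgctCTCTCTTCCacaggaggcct
Rplp2: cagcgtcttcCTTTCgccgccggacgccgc
Rpl35: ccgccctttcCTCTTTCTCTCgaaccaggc
Rps6: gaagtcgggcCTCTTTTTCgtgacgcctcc
Rps15a: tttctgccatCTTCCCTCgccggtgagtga
Rpl14: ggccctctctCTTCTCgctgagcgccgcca
Rps27l: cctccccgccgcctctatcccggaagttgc
Rplp0: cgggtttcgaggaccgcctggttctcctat

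Most cytosolic ribosomal protein genes were slightly higher in brains after Aldara than after control cream. Of the 74 genes, 47 (63.5%) rose at an adjusted p under 0.05, 1 (1.35%) fell and 26 did not pass, by limma with Benjamini-Hochberg adjustment over all 23410 probesets tested. Among all tested probesets, 12.4% were higher and 21% were lower, shares that became 9.82% and 41% when all arrays were given 1 median and 16.4% and 11.8% with the median difference set to 0. The median difference of the members, Aldara minus control, was 0.127 on the log2 scale (1.09-fold), with quartiles of 0.057 and 0.167, where the median over all tested probesets was -0.041. The sizes were small, as 8 members rose by at least 1.2-fold and 1 by at least 1.5-fold. In 45 members every Aldara array lay above every control array, which was so for 10.5% of all tested probesets. In none of the 74 (0) did every Aldara array lie below every control array, against 15.3% of all tested probesets.

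**Figure D1:**
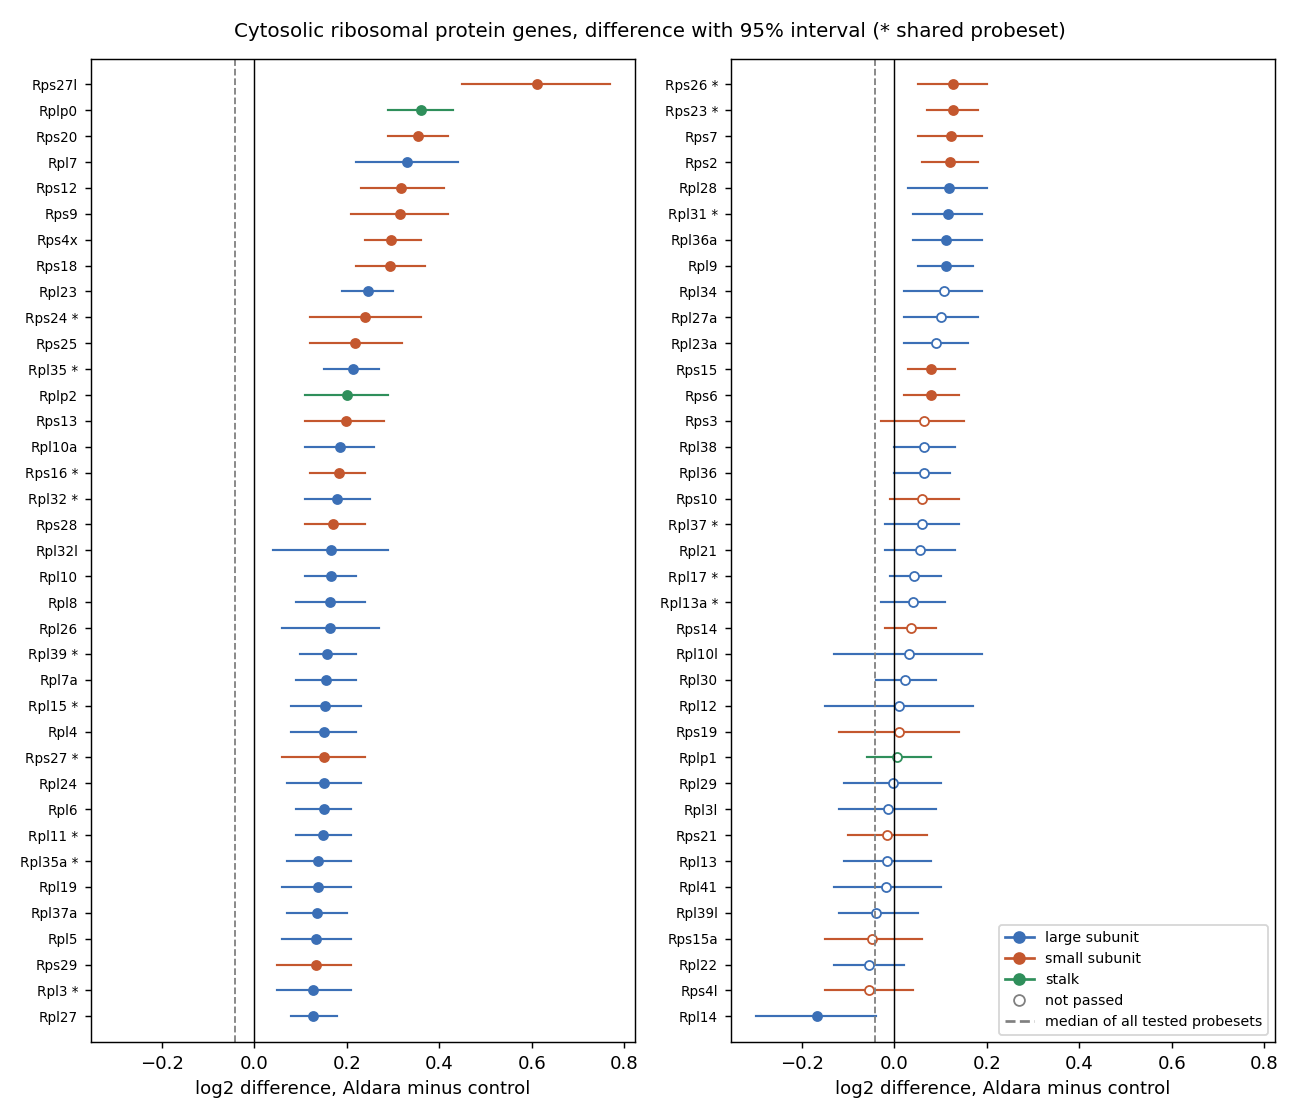
Log2 difference, Aldara minus control, with its 95% interval from limma for each of the 74 genes, ordered by size over both panels (n = 5 arrays per group). Filled points passed the test, open points did not, an asterisk marks a shared probeset and the dashed line is the median of all tested probesets. Of the 74 points, 64 lie above 0, from Rps27l at 0.61 down, and Rpl14 at -0.17 is the lowest.

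The rise was seen on every Aldara array. The mean log2 value over the 74 genes, minus its control mean, was 0.122, 0.088, 0.111, 0.136 and 0.169 on the 5 Aldara arrays, and lay between -0.012 and 0.019 on the control arrays. The groups did not overlap, and Aldara replicate 5 was the highest array. Without each array in turn, 43 to 47 members rose and the median difference stayed between 0.119 and 0.134. The arrays' own medians over the tested probesets were 8.10 to 8.14 in control mice and 8.16 to 8.19 in Aldara-treated mice. When all arrays were centred on 1 median, 36 members rose and 2 fell, and the median member difference was 0.078.

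In the small subunit, which binds the message and reads its codons, 19 of 26 genes (73.1%) rose, 0 fell and 7 did not pass, with a median log2 difference of 0.130. At an unadjusted p under 0.05 in limma, and by the methods' t-test, 0 small subunit genes were lower as well. The large subunit, which joins the amino acids, had 26 of 45 genes (57.8%) that rose, 1 that fell and 18 that did not pass, with a median of 0.119. The medians of the subunits thus lay 0.011 apart. The largest differences were more often of small subunit genes, with 6 of them and 1 large subunit gene at 1.2-fold or more. Per array, the mean over small subunit genes minus the mean over large subunit genes, relative to control mice, was 0.061, 0.076, 0.041, 0.051 and 0.076 on the Aldara arrays, against -0.016 to 0.026 on the control arrays. The separation of the groups in that gap depended on the paralogs. Without Rps27l, Rps4l, Rpl10l, Rpl3l and Rpl39l the gap was 0.024 to 0.062 on the Aldara arrays. It was then -0.022 to 0.031 on the control arrays, and the groups overlapped. The mean gap on the Aldara arrays was 0.061 with these paralogs and 0.043 without them. The difference between subunits is a description, with no test.

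**Figure D2:**
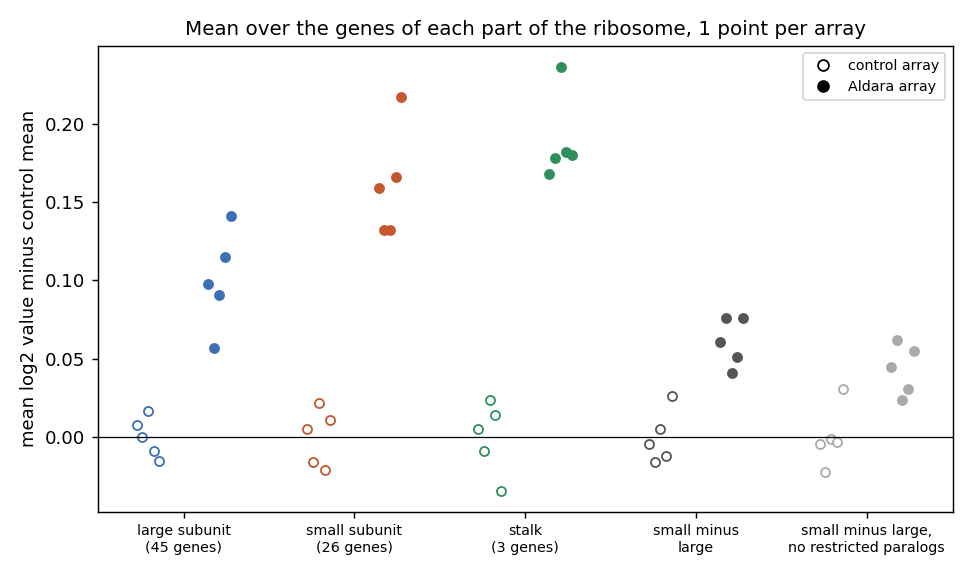
Mean log2 value over the genes of each part of the ribosome, minus the control mean, with 1 point per array (open, control; filled, Aldara; n = 5 each). The large subunit, small subunit and stalk columns separate the groups, and so does small minus large, whose groups overlap once the 5 paralogs are left out.

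Rps27l, a paralog of Rps27 known as a target of p53, had the largest difference of the 74 genes. Its log2 values were 9.53, 9.62, 9.44, 9.38 and 9.41 in control mice and 10.09, 9.85, 10.10, 10.12 and 10.29 in Aldara-treated mice. Every Aldara array lay above every control array. The log2 difference was 0.61 (standard error 0.07), or 1.53-fold with a 95% interval of 1.37 to 1.70 (limma, adjusted p = 4.8e-05). Rps27 itself, on a probeset shared with its retrogene Rps27rt, differed by 0.15. The chosen probesets of 4 other paralogs of the list did not pass. Rpl10l and Rpl39l, which are expressed mainly in the testis, differed by 0.03 and -0.04, Rpl3l, a gene of striated muscle, by -0.01, and Rps4l, a paralog of Rps4x, by -0.06. A second probeset of Rps4l was called higher, at 0.11 (limma adjusted p = 0.029). Rpl32l, a further paralog, rose by 0.17 (limma adjusted p = 0.039) with overlap between the groups, and Rpl7l1, which the naming rule does not take as a member, rose by 0.18 (limma adjusted p = 7.4e-04). Rpl10l, Rpl3l and Rpl39l had means of 6.19, 5.86 and 5.55 in a table that starts at 4.73, and whether they stood above background is not known.

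Of the stalk proteins, which recruit the translation factors to the ribosome, Rplp0 and Rplp2 rose and Rplp1 did not pass. Rplp0, the stalk's base, read 11.85, 11.80, 11.84, 11.88 and 11.78 in control mice and 12.25, 12.15, 12.15, 12.20 and 12.21 in Aldara-treated mice. These groups did not overlap, with a log2 difference of 0.36 (standard error 0.03, limma adjusted p = 2.8e-06), or 1.28-fold. Rplp2 read 8.23, 8.28, 8.30, 8.20 and 8.16 against 8.33, 8.40, 8.55, 8.46 and 8.44, a difference of 0.20 (limma adjusted p = 0.0034). For Rplp1, the partner of Rplp2, the values were 12.62, 12.59, 12.63, 12.66 and 12.65 against 12.62, 12.68, 12.71, 12.58 and 12.59. Those groups overlapped throughout, and the difference was 0.01 with a 95% interval of -0.06 to 0.08.

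Among the other small subunit genes, Rps20 rose by 0.35 (standard error 0.03, limma adjusted p = 2.9e-06), from 11.91, 11.92, 11.96, 11.88 and 11.94 to 12.27, 12.24, 12.23, 12.31 and 12.34. It encodes a protein of the subunit's head, and its groups did not overlap. Rps12, Rps9, Rps4x and Rps18 followed with log2 differences of 0.32, 0.32, 0.30 and 0.29, and Rps25, needed for initiation at several internal entry sites, with 0.22. Rps24, on a probeset shared with Gm4832, lay between them at 0.24. The groups did not overlap in Rps12, Rps9, Rps4x, Rps18 or Rps25. Rps6, the S6 kinase substrate, rose by 0.08 (limma adjusted p = 0.033), from 13.15 to 13.20 in control mice to 13.21 to 13.29 in Aldara-treated mice. That call was lost when all arrays were centred on 1 median, with quantile normalisation and without any 1 of 7 arrays (listed in the closing section). Rps3, which lines the entry of the message channel, and Rps19, a gene mutated in Diamond-Blackfan anaemia, differed by 0.06 and 0.01 and did not pass.

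In the large subunit, Rpl7 and Rpl23 had the largest increases. Rpl7 read 10.51, 10.55, 10.56, 10.47 and 10.42 in control mice and 10.87, 10.69, 10.79, 10.81 and 10.99 in Aldara-treated mice, a log2 difference of 0.33 (standard error 0.05, limma adjusted p = 4.0e-04). Rpl23, a protein on the face towards the small subunit, read 11.30 to 11.35 against 11.52 to 11.60, a difference of 0.25. Neither gene overlapped between groups. Rpl10, which joins the subunit late in its assembly, rose by 0.17. Rpl5 and Rpl11, which bring the 5S ribosomal RNA into the subunit and can bind Mdm2, rose by 0.13 and 0.15, Rpl11 on a probeset shared with Brf2. Rpl13a, known to leave the ribosome and silence messages after interferon-γ, had a probeset shared with Zfp526 and differed by 0.04, with overlap between the groups. Rpl22, a binder of viral and T cell RNAs, differed by -0.05 and did not pass.

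Rpl14 was the 1 member called lower. Its log2 values were 7.81, 8.0, 7.97, 7.70 and 7.87 in control mice and 7.68, 7.82, 7.68, 7.73 and 7.60 in Aldara-treated mice, a difference of -0.17 (standard error 0.06, limma adjusted p = 0.044). The groups overlapped, and the exact two-sided permutation test over the 10 arrays gave p = 0.04, where 0.0079 is the smallest it can give. The call was lost without any 1 of 8 arrays. In the other direction, Rpl23a and Rpl27a were just outside the threshold, with adjusted p-values of 0.054 and 0.055 from limma, and Rpl34 was outside it by less than the rounding to 0.05. Other probesets of these genes passed as higher, 11 of 13 for Rpl23a, 4 of 5 for Rpl34 and 1 of 9 for Rpl27a.

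**Figure D3:**
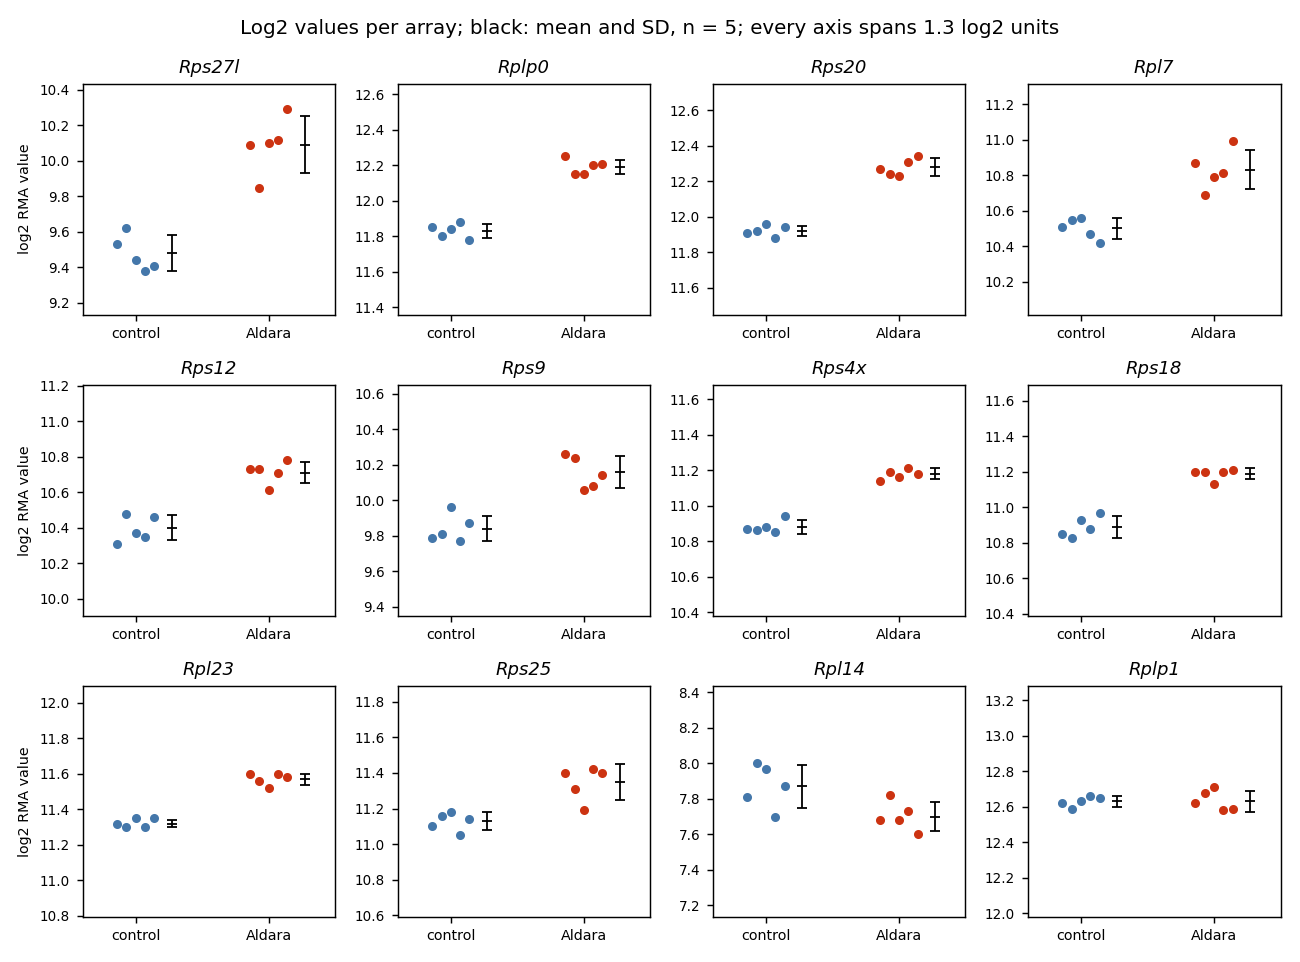
Log2 RMA value on each array (blue, control; red, Aldara), with the mean and SD in black (n = 5), for the 10 largest increases among members with a single-symbol probeset, Rpl14 and Rplp1. Each axis spans the same 1.3 log2 units, and the groups are apart in all panels except those of Rpl14 and Rplp1.

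Other probesets of the same genes were also read. In all, 443 probesets carried a member's symbol, of which 257 were higher, 1 was lower and 185 did not pass, with a median log2 difference of 0.121. Of the 210 with a single symbol, 134 were higher and 1 was lower. Among the 62 members with more than 1 probeset, 49 had higher calls only, 13 had none and 0 had calls in both directions. All 18 probesets of Rps12 were higher (0.25 to 0.32), as were all 4 of Rplp0 (0.36 to 0.44) and all 7 of Rps18 (0.29 to 0.32). Some genes were divided. Of the 26 members that did not pass on their chosen probeset, 8 had another probeset called higher and 0 had one called lower, among them Rpl12 with 7 of 9, Rps15a with 1 of 3 and Rpl13a with 1 of 4. Rps19 had 3 of 4 probesets higher, and its single-symbol probeset was the one at 0.01, while the others reached 0.22. Rps27l, Rpl14, Rps20 and Rplp2 had 1 probeset each, so no second reading was available. Probesets of 1 gene read overlapping RNA and are not replicates.

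The count was also taken by kind of probeset. Of the 58 single-symbol members 34 rose and 1 fell, with a median of 0.120, and of the 16 shared members 13 rose, with a median of 0.144. The probeset of Rpl35 is shared with Itgam, a macrophage gene whose own probeset was 1.95 higher in Aldara-treated mice on the log2 scale, and which of the genes it read at 0.21 was not tested. Members with a mean signal of at least 10 rose in 40 of 56 cases and fell in none (0), where 17.3% of all tested probesets that bright were higher and 32.9% were lower. Among the 18 members under that signal, 7 (38.9%) rose and 1 (5.56%) fell, and their median difference was 0.016. Some of them were dim because a single-symbol probeset was preferred. Rpl12, Rpl30 and Rps15a were read at 7.64, 8.80 and 9.45, while shared probesets of theirs reached 12.66, 12.18 and 10.20. The split by signal thus partly reflects the choice of probeset. Of all tested probesets, whatever their signal, 12.4% were higher and 21% were lower. Signal is not an amount of RNA that can be set against another probeset's.

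**Figure D4:**
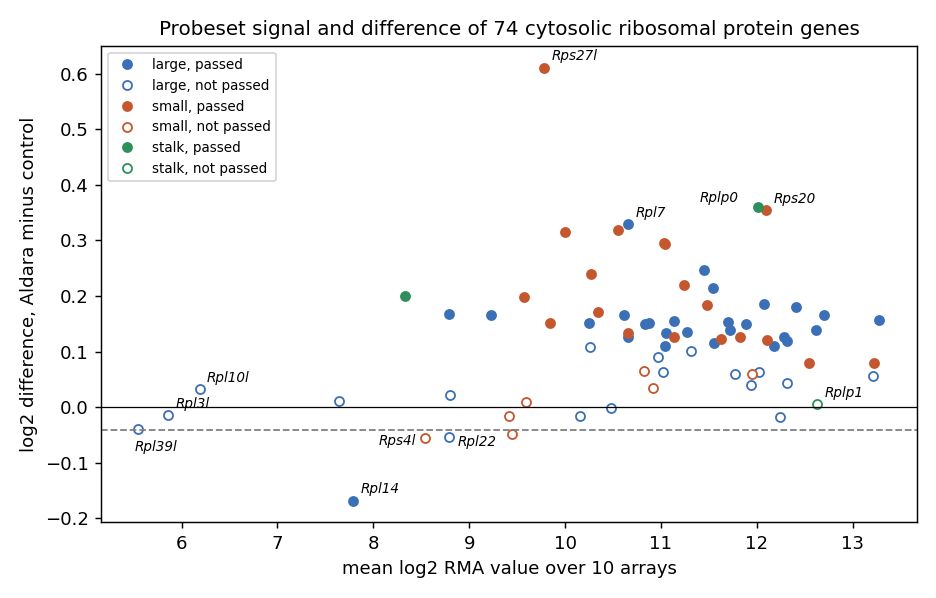
Mean log2 signal of each member over the 10 arrays against its log2 difference, Aldara minus control, with filled points for members past the test. The dashed line is the median of all tested probesets at -0.041, and most members with a signal of at least 10 lie above 0.1, while Rpl10l, Rpl3l and Rpl39l lie at the dim end near 0.

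Sequence at the annotated starts was set beside the differences. A RefSeq promoter was matched for 59 members, and 15 had none in the table. A C at the first base followed by at least 4 bases that are C or T was found in 14 of 59 members (23.7%) and in 3.01% of all 27025 genes of the table. Of the 14 members with it, which include Rps18, Rps6 and Rpl14 shown above, 9 rose, with a median log2 difference of 0.129. Of the 45 without it, 32 rose, with a median of 0.134. The motif CCGGAAG, a core of ETS factor sites searched on both strands from 250 bases before to 50 after the start, was found in 40.7% of the members and 9.93% of all genes, and 16 of 24 members with it and 25 of 35 without it rose. An annotated start can lie some bases away from the one used in the brain, so a missing tract says only that these letters were not at that base.

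A few proteins of the cytosolic ribosome fall outside the naming rule, and 3 of them were measured. Rpsa and Fau, of the small subunit, rose by 0.24 and 0.18 (limma adjusted p = 2.2e-04 and 3.5e-04), and Rps3a1 differed by 0.03. The ribosomal proteins of mitochondria, which translate the mitochondrial genome, had 8 higher (10.4%) and 2 lower (2.6%) of 77. Their median log2 difference was -0.015. Both shares lay under those of all tested probesets, 12.4% higher and 21% lower. Mrps6 and Mrpl47 rose by 0.26 and 0.23, and Mrps21 fell by 0.24. No test of the difference between cytosolic and mitochondrial proteins was made.

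Other TOP messages, chosen with these data known and not counting ribosomal proteins, had 9 higher and 1 lower of 18, with a median of 0.113. Among them were Vim, an intermediate filament of glia and leukocytes (1.48), the actin binder Tmsb4x (0.48) and the poly(A) binder Pabpc1 (0.27), and Cox4i1, a subunit of cytochrome oxidase, fell by 0.19. Initiation factors had 8 higher (21.6%) and 3 lower (8.11%) of 37, where 12.4% and 21% of all tested probesets were so. Eif4a1, the helicase that unwinds the 5′ end, was at 0.17, Eif2s2 at 0.30, Eif3e at 0.20 and Eif5a2 at -0.17. In elongation and release, 3 rose and 3 fell of 13 (23.1% each). Eef1a1, the widely expressed elongation factor, rose by 0.10, and Eef1a2, its form in neurons and muscle, fell by 0.21.

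The genes whose products make and regulate ribosomes were counted in the same way. Of 57 biogenesis genes 9 rose (15.8%) and 3 fell (5.26%), with a median of 0.036. The shares over all tested probesets were 12.4% and 21%. The biogenesis genes with the smallest p were the nucleolar helicases Ddx21 (0.33) and Ddx52 (0.17) and the assembly factors Rpf1 (0.25) and Rrp8 (0.14). RNA polymerase I, which makes ribosomal RNA, had 0 higher and 1 lower of 15, Cd3eap at -0.10. At an unadjusted p under 0.05 in limma it had 0 higher and 2 lower, and by the methods' t-test 0 and 1. Of 27 genes of mTOR signalling and TOP control, 2 rose and 9 fell. Eif4ebp1, the repressor that mTOR inactivates, rose by 0.35 and Myc by 0.28, while Mycn fell by 0.31, the mTOR inhibitor Deptor by 0.20 and Mtor by 0.13, and Larp1 differed by 0.00. In the integrated stress response, 10 of 17 genes rose and 2 fell, among them Eif2ak2, an interferon-induced kinase that halts initiation (2.10), Atf3 (1.01), the cystine carrier Slc7a11 (0.65) and Chac1 (0.22). These lists are read against the background shares above, and the split over them moved with the scaling, as the closing section gives.

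**Figure D5:**
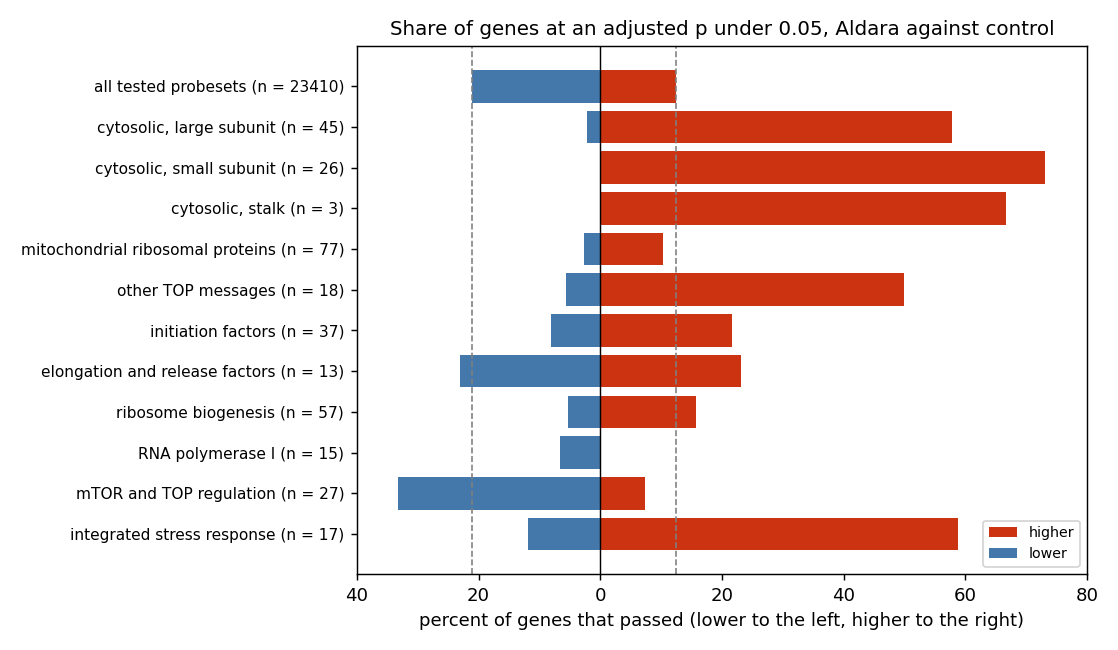
Percent of the genes of each list that passed the test as higher (right) or lower (left) in Aldara-treated mice, with the shares over all 23410 tested probesets as dashed lines. The bars of the cytosolic ribosomal proteins, the other TOP messages and the integrated stress response reach 50% or more to the right. Those of the mitochondrial ribosomal proteins, RNA polymerase I and mTOR and TOP regulation stay under the right dashed line at 12.4%. To the left, mTOR and TOP regulation (33.3%) and elongation and release factors (23.1%) pass the dashed line at 21%.

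Markers of other cell types moved with the groups as well. Their counts are read against the shares over all tested probesets, 12.4% higher and 21% lower. All 8 measured markers of monocytes and macrophages were higher, with a summed unlogged signal of 1090 to 1150 in control mice and 7410 to 9260 in Aldara-treated mice. Markers of microglia were higher in 5 of 6 (sums of 2690 to 3020 against 4040 to 5200), of NK cells in 4 of 4 (294 to 352 against 645 to 923), of proliferation in 4 of 4 (1550 to 1650 against 2410 to 2590) and of endothelium in 3 of 4 (2590 to 2970 against 3880 to 4270). The microglia markers that rose ran from 0.26 (Sall1) to 1.64 (Aif1), and P2ry12, at 0.02, did not pass. Whether the microglia and macrophage lists read separate cells was not tested. All 6 neuron markers were lower, with sums of 30600 to 31300 against 27900 to 28700. The part of these cell types in the rise of the ribosomal protein genes was not tested. Astrocyte markers were divided, with 3 higher, Gfap among them at 1.73, and 2 lower of 5, among them Slc1a2 at -0.57. Of the remaining lists, oligodendrocytes had 1 higher and 1 lower of 4, T cells 2 and 1 of 5, B cells 1 and 0 of 3, neutrophils 1 and 0 of 4 and red cells 0 and 0 of 1.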

How the data were processed

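RNA of whole perfused brains, 5 from control and 5 from Aldara-treated mice, was measured on Affymetrix mouse gene arrays. The deposited values are log2 expression values that the authors obtained in GeneSpring GX by RMA (background correction, quantile normalisation between arrays and 1 summary value per probeset). Scanner values were not used here, so detection above background is not known, and 0 columns of other samples were present. Of 28856 probesets, 21789 had 1 symbol, 1621 several and 5446 none in the platform annotation, which can be old.

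The 23410 probesets with a symbol were tested with limma 3.58.1 (lmFit, eBayes, no block) in R 4.3.3, with Benjamini-Hochberg adjustment over all of them and a threshold of 0.05. The test was checked on simulated data. Differences are Aldara minus control means of log2 values, and single genes were also given an exact two-sided permutation test. Precision is limited by the 5 arrays in each group, which are labelled as biological replicates.

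The members, the translation lists, the cell type markers and the naming rule were chosen with earlier results of these data known. Members named are the 10 largest increases and decreases past the threshold with a single-symbol probeset, the stalk genes, the paralogs of restricted expression and Rps6, Rpl5, Rpl11, Rps3, Rps19, Rpl10, Rps27l, Rpl22 and Rpl13a; Rps27a was not analysed here. Of each list up to 4 genes with the smallest p are named. Other members and list genes were named after their values were seen. Lists were read from single-symbol probesets. No list was given a test of its own.

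Alternatives were centring of the arrays, a median difference set to 0, quantile normalisation, all probesets, those with 1 symbol, the brighter probesets, a trend with a robust prior, array weights, the replicate block, the methods' t-test, the mean of a gene's probesets, members without shared probesets or without paralogs, and each array left out. A minimum mean of 10 was chosen after seeing the data. Promoters, from 250 bases before to 50 after each start, came from RefSeq on GRCm38.p6. The annotation of the array was not compared with that build.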

Additional observations from a re-analysis of the deposited data

Results flagged for a closer look

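In 58 groups of 5 arrays (25 named genes and 4 means over members, in each treatment group), 3 held an array that stood apart from the other 4 by more than Dixon's critical value of 0.71, the gap over the range. Chance flags about 1 in 20 groups. Aldara replicate 3 was the array in all 3. Rps18 was lowest there at a log2 value of 11.13, with the others at 11.20 to 11.21. Rpl39l was also lowest there, at 5.44 against 5.53 to 5.57. The mean over the 3 stalk genes was highest there at 11.13, against 11.07 to 11.08 on the other Aldara arrays. The 11.13 of Rps18 still lay above the highest control value of 10.97, and Rpl39l did not pass the test with or without that array.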

How the results depend on the processing

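Across the alternatives with all 74 members, 36 to 56 rose (34 of 58 and 35 of 58 with shared probesets left out, 40 of 56 with a minimum mean of 10), and their median difference stayed above 0. When all arrays were centred on 1 median, the medians were 0.078 for all members, 0.071 for the large and 0.082 for the small subunit, 2 members fell, both of the large subunit, and the translation lists held 29 higher and 65 lower genes in place of 48 and 24. With the median difference set to 0, the medians were 0.168, 0.160 and 0.171, and the lists held 73 higher and 7 lower. The count of lower members, 1 (Rpl14), became 0 with that setting, with all probesets and with the methods' t-test. It was also 0 with the brighter probesets and a minimum mean of 10. Both of these leave out Rpl14, whose mean was 7.79, so they do not test its call. Without single arrays the count of lower members was 0 to 1, in the large subunit as in all. The call of Rpl14 was lost without Aldara replicates 1, 3, 4 or 5 or control replicates 1, 2, 3 or 5. Rps6 lost its call without Aldara replicates 1, 4 or 5 or control replicates 1, 3, 4 or 5. The causes were not tested.

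Some of the named genes that did not pass changed sign under some settings. Centring gave -0.04 for Rplp1, -0.02 for Rpl10l, -0.04 for Rps19 and -0.01 for Rpl13a, and gave Rpl22 a lower call at -0.10. The median difference set to 0 gave 0.00 for Rpl39l and 0.03 for Rpl3l, and quantile normalisation 0.00 for Rpl3l. Without single arrays, Rplp1 ran from -0.01 to 0.02, Rpl10l from -0.02 to 0.08, Rpl3l from -0.05 to 0.01 and Rps19 from -0.05 to 0.04.

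Replicate numbers are shared between the groups. The arrays' deviations correlated at 0.177, 0.249, 0.0379, -0.11 and 0.0725 by number. The highest correlations with an Aldara array of another number were 0.132, 0.171, 0.212, 0.172 and 0.103. The same number was thus higher for replicates 1 and 2 and lower for replicates 3, 4 and 5. The numbers were not taken as pairs in the main test. With the replicate block, 45 members rose and 1 fell, and Rps6 lost its call.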
